A study of Mus musculus with 16 samples.

Results

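The genes described here encode the machinery that copies DNA in S phase: the origin recognition complex, the licensing factors, the MCM2-7 helicase and its activators, the replicative polymerases, the sliding clamp and its loader, the enzymes that supply nucleotides, and the S phase cyclins. The set holds 57 genes, of which 53 had an ATAC-seq peak in at least 1 library that overlapped their promoter, taken as the 1000 bp before and the 100 bp after any annotated transcription start. Genes were chosen by symbol in the GENCODE annotation of GRCm38 (mm10), out of 55450 annotated genes. The rule used no measured value, but earlier results of these data were known when it was set. Overlapping or touching peaks of all libraries were joined into 16566 combined regions, 10326 of which overlapped such a promoter window, and 55 of those belonged to the set because Gins1 and Uhrf1 had a further region each. Each gene is represented below by the region listed in most libraries.

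ATAC-seq uses a transposase that cuts and tags accessible DNA, and was performed on 50000 cells per library. The 8 libraries came from splenic B cells of C57BL/6 mice, activated in culture with LPS at 10 µg/mL and IL-4 at 20 ng/mL. The sample labels give 72 hours of treatment and the series text gives 96 hours. 4 libraries were labelled Brg1fl/+ CD23Cre +/- (Brg1fl/+ below) and 4 were labelled Brg1fl/fl with the same Cre (Brg1fl/fl below). Every library therefore carried CD23-Cre, which recombines floxed alleles in mature B cells, and the control cells were designed to lose 1 allele of Brg1, the ATPase of the BAF chromatin remodeling complex encoded by Smarca4. The number of mice behind the 4 libraries of a genotype is not stated, and a promoter peak of Smarca4 cannot check the genotype labels, so p-values below measure the spread between libraries, which may be technical. Among marker genes, 5 of 8 B cell promoters had a region, against 1 of 7 T cell promoters and none of 6 myeloid, 4 NK cell and 5 erythroid promoters.

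Origins of replication are licensed in G1 phase, when the origin recognition complex with CDC6 and CDT1 loads the MCM2-7 helicase onto DNA. In S phase, kinases and cyclins turn the loaded helicase on, and polymerase alpha with primase starts each strand. Polymerases epsilon and delta, held on DNA by a PCNA clamp that the RFC complex loads, extend the leading and lagging strands. Many of these genes are transcribed together at the G1 to S transition by E2F transcription factors, which bind short sites close to the start site, and lymphocytes turn them on when an antigen or mitogen drives them from rest into division. The comparison of the genotypes asks whether the promoters of these genes stay as accessible, relative to other listed regions, when both Brg1 alleles are deleted.

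The open region at most of these promoters was centred on the start site itself. The summit lay within 100 bp of an annotated start site in 42 of 53 genes, at a median of -23 bp, and the farthest summits were those of Pole3 at -240 bp and of Gins1 at 175 bp. The median width was 632 bp, against 600 bp over all promoter regions. 13 of the 53 regions (24.5%) also covered the promoter of another protein-coding gene, against 12.8% of all promoter regions of coding genes, and a value at these cannot be assigned to 1 of the genes. Among them were Pole with Pxmp2, Pole3 with 4933430I17Rik, Orc1 with Prpf38a, Mcm4 with Prkdc, Mcm7 with Ap4m1, Cdc45 with Ufd1 and Rpa1 with Smyd4.

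Sites of the E2F type were frequent at the summits. The sequence within 100 bp of each summit was searched on both strands for TTTCCCGC, TTTGGCGC, TTTCGCGC and TTTGCCGC, and 16 of the 53 regions (30.2%) held at least 1 match, against 3.28% of all promoter regions. Since E2F control was part of what these genes are known for, and no test was made over the set, the share is a description. The 16 genes were Mcm2, Mcm3, Mcm4, Mcm5, Mcm6, Gins3, Orc3, Rfc3, Pola1, Pole, Pole2, Pole4, Uhrf1, Timeless, Tipin and Clspn. Together they held 22 matches, 13 of which lay in an annotated exon, and opposite-strand matches overlapped in Mcm2, Mcm5 and Mcm6. The following stretches of GRCm38, read on the strand of the gene, are shown because they carry these sites in genes whose values are given below, with the letters of the matches in capitals.

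Pole, chr5:110286332-110286361, plus strand: acgtggagagcGCGCCAAAttctccccgga
Mcm2, chr6:88898676-88898705, minus strand: gtctagtTTTCGCGCGAAAaccggtggcag
Mcm3, chr1:20820256-20820285, minus strand: acttgggaagtTTTGGCGCcaaggcggtgt
Mcm5, chr8:75109310-75109409, plus strand: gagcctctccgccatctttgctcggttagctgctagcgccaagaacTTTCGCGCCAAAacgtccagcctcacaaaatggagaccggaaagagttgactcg
Mcm6, chr1:128359758-128359857, minus strand: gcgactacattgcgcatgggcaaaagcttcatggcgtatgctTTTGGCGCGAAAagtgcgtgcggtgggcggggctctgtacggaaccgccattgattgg
Orc3, chr4:34614965-34614994, minus strand: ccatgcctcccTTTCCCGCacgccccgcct
Rfc3, chr5:151651190-151651219, minus strand: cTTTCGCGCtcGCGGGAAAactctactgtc
Tipin, chr9:64281555-64281584, plus strand: gcctacccttgGCGCCAAAtttctcagctt

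The site of Pole began 2 bp downstream of its nearest start site, inside the first exon, whereas the overlapping sites of Mcm5 began at -213 and -209 bp, outside exons. The CCAAT box, searched as CCAAT, was present in 27 of 53 regions (50.9%, against 32.0% of all promoter regions), and the ETS core CCGGAAG in 16 (30.2%, against 17.0%). The cell cycle element CHR, TTTGAA, was present in 9.43% against 5.04%, and within 250 bp of the summit in 15.1% against 14.7%. The general promoter elements were about as frequent as in all promoter regions: the GC box GGGCGG in 69.8% against 66.6%, the NRF1 palindrome in 9.43% against 11.2%, and the E-box CACGTG in 7.55% against 8.69%. Among promoter regions listed in all 8 libraries these 3 shares were higher, at 75.4%, 17.9% and 10.0%. In those regions the E2F sites were found in 4.26%, the CCAAT box in 37.7% and the ETS core in 17.8%. The cAMP response element TGACGTCA was found in 5.66% of the regions and in 3.46% of all promoter regions. The median GC content was 65.7% in the set and 66.7% in all promoter regions.

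**Figure D1:**
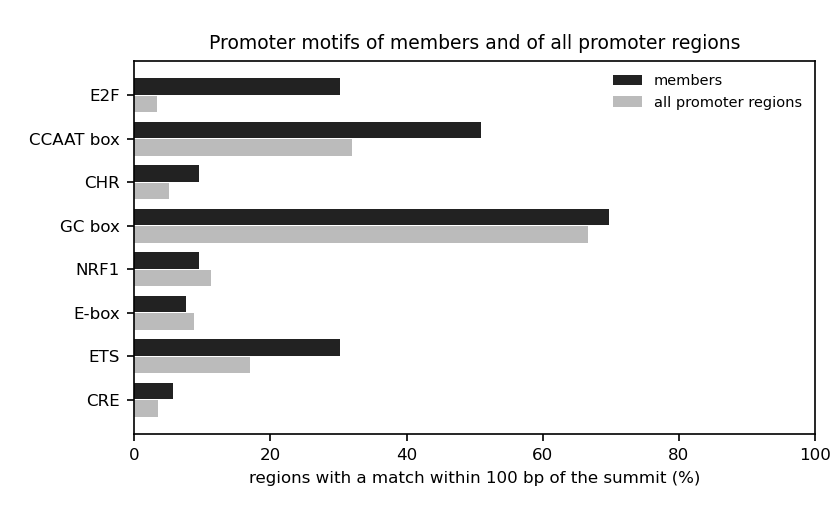
Share of promoter regions with a match within 100 bp of the summit (x axis, percent) for 8 motifs (y axis), in the 53 regions of DNA replication and S phase genes (black) and in all promoter regions (grey). The E2F sites stand at 30.2% against 3.28%, and the GC box at 69.8% against 66.6%.

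The values compared are peak folds. For each peak the deposited lists give the ratio of the fragments at the summit to the local background of the same library, each raised by 1, as MACS2 computes it. The number of fragments at the summit was recovered from this ratio and the −log10 p. In bulk B cells, fewer cells with an open promoter and less accessibility per cell cannot be told apart. The libraries differed in depth. The median promoter peak listed in all 8 libraries held 79, 51, 24 and 36 fragments at its summit in Brg1fl/+ replicates 1 to 4, and 48, 22, 43 and 43 in Brg1fl/fl replicates 1 to 4. The median fold over regions listed in all libraries was 13.6, 13.2, 10.4 and 12.0 in Brg1fl/+ replicates 1 to 4 and 11.2, 9.26, 11.1 and 11.2 in Brg1fl/fl replicates 1 to 4. Raw folds were thus lower in most Brg1fl/fl libraries at promoters in general, and genotypes were compared after centring on these medians. Centring removes any change common to these regions, so the differences below are relative to other regions and do not show absolute accessibility. The shallowest libraries were Brg1fl/+ replicate 3 and Brg1fl/fl replicate 2. Within a genotype, Brg1fl/+ replicates 1 and 2 and replicates 3 and 4, and Brg1fl/fl replicates 1, 3 and 4, differed by about the sampling noise of these fragments (variance of 0.844 to 1.08 times that of counting alone), and the other pairs by 1.21 to 2.3 times, so the lists do not show whether the libraries are separate cultures. Each was counted as 1 replicate, and calls are also given with such libraries averaged.

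Promoters of replication genes were detected more often than promoters in general. 53 of the 57 genes (93.0%) had a promoter region, against 47.8% of 21924 protein-coding genes, and 33 (57.9%) had one in all 8 libraries, against 22.2% of protein-coding genes. Of the regions themselves, 33 of 53 (62.3%) were listed in all 8 libraries, against 41.1% of all promoter regions. The genes with a region in Brg1fl/+ replicates 1 to 4 numbered 53, 50, 37 and 45, and those in Brg1fl/fl replicates 1 to 4 numbered 48, 37, 47 and 47. The mean was 46.2 ± 6.99 genes in Brg1fl/+ and 44.8 ± 5.19 in Brg1fl/fl (SD, n = 4), a difference smaller than the spread within either genotype. The lowest counts, 37 in each genotype, were those of the shallowest libraries.

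**Figure D2:**
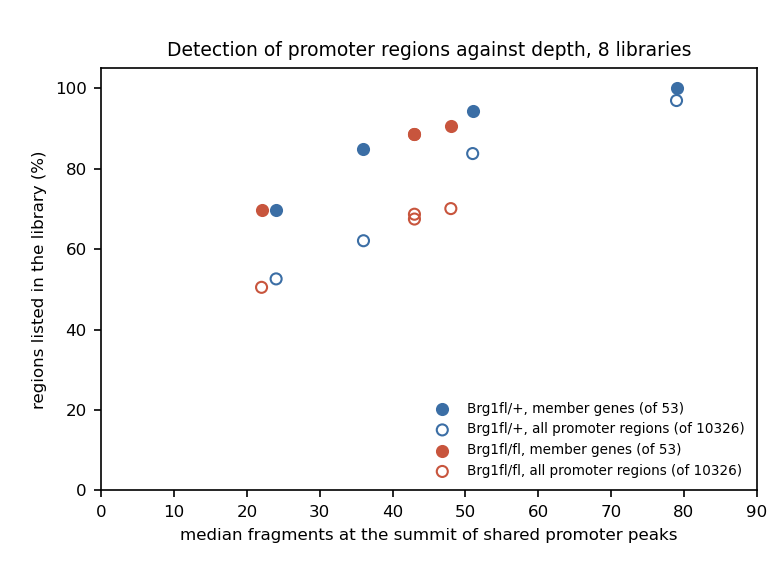
Share of regions listed in a library (y axis, percent) against its depth, as the median fragments at the summit of promoter peaks shared by all libraries (x axis), for 4 Brg1fl/+ (blue) and 4 Brg1fl/fl (red) libraries. Filled points are the 53 replication gene regions and open points all 10326 promoter regions; both shallowest libraries list 69.8% of the gene regions, and the deepest lists all of them.

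4 genes had no region in any library. These were Prim1, the catalytic subunit of primase; Tyms, the thymidylate synthase; Tk1, the thymidine kinase that salvages thymidine; and Chaf1a, the large subunit of the chromatin assembly factor CAF-1. The nearest listed region lay 8634 bp from a start site of Prim1, 40507 bp from Tyms, 5719 bp from Tk1 and 3552 bp from Chaf1a. A promoter without a peak was not detected at these depths, which does not show that it was closed.

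The other 20 genes were listed in 1 to 7 libraries. 7 of the 53 regions (13.2%) were listed in fewer Brg1fl/fl than Brg1fl/+ libraries, against 37.4% of all promoter regions, 3 (5.66%) in more, against 11.3%, and 10 in equal numbers. With only peaks at a −log10 q of at least 10, 18 of 52 were listed in fewer Brg1fl/fl libraries (background 44.8%). No gene was listed in every library of one genotype and in none of the other (background 0.165% for Brg1fl/+ only and 0.00968% for Brg1fl/fl only). The 7 genes listed less often in Brg1fl/fl were Mcm10, Gins3, Rfc2, Rfc3, Rfc5, Prim2 and Rrm1, and the 3 listed more often were Orc2, Orc3 and Pola2. Orc5, Rfc1, Rfc4, Pola1, Pold3, Pole2, Rrm2, Uhrf1, Tipin and Clspn were listed in as many libraries of each genotype. Of these 10, the region was missing only from the shallowest library of each genotype in Rfc1, Rfc4, Pold3, Rrm2, Uhrf1, Tipin and Clspn.

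Mcm10, which binds the helicase as it is activated, showed the widest gap in detection. Its peak had a fold of 14.2, 14.8, 11.1 and 11.2 in Brg1fl/+ replicates 1 to 4 and of 9.13 in Brg1fl/fl replicate 3, and no peak was listed in the other Brg1fl/fl libraries. It was present in the shallowest Brg1fl/+ library, with 18 fragments at the summit, and missing from Brg1fl/fl replicates 1, 2 and 4. The part of depth in this was not tested. A gap of 3 or more libraries in this direction was found in 1.99% of all promoter regions. Mcm10 was singled out after its values were seen, and no test was made of it.

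**Figure D3:**
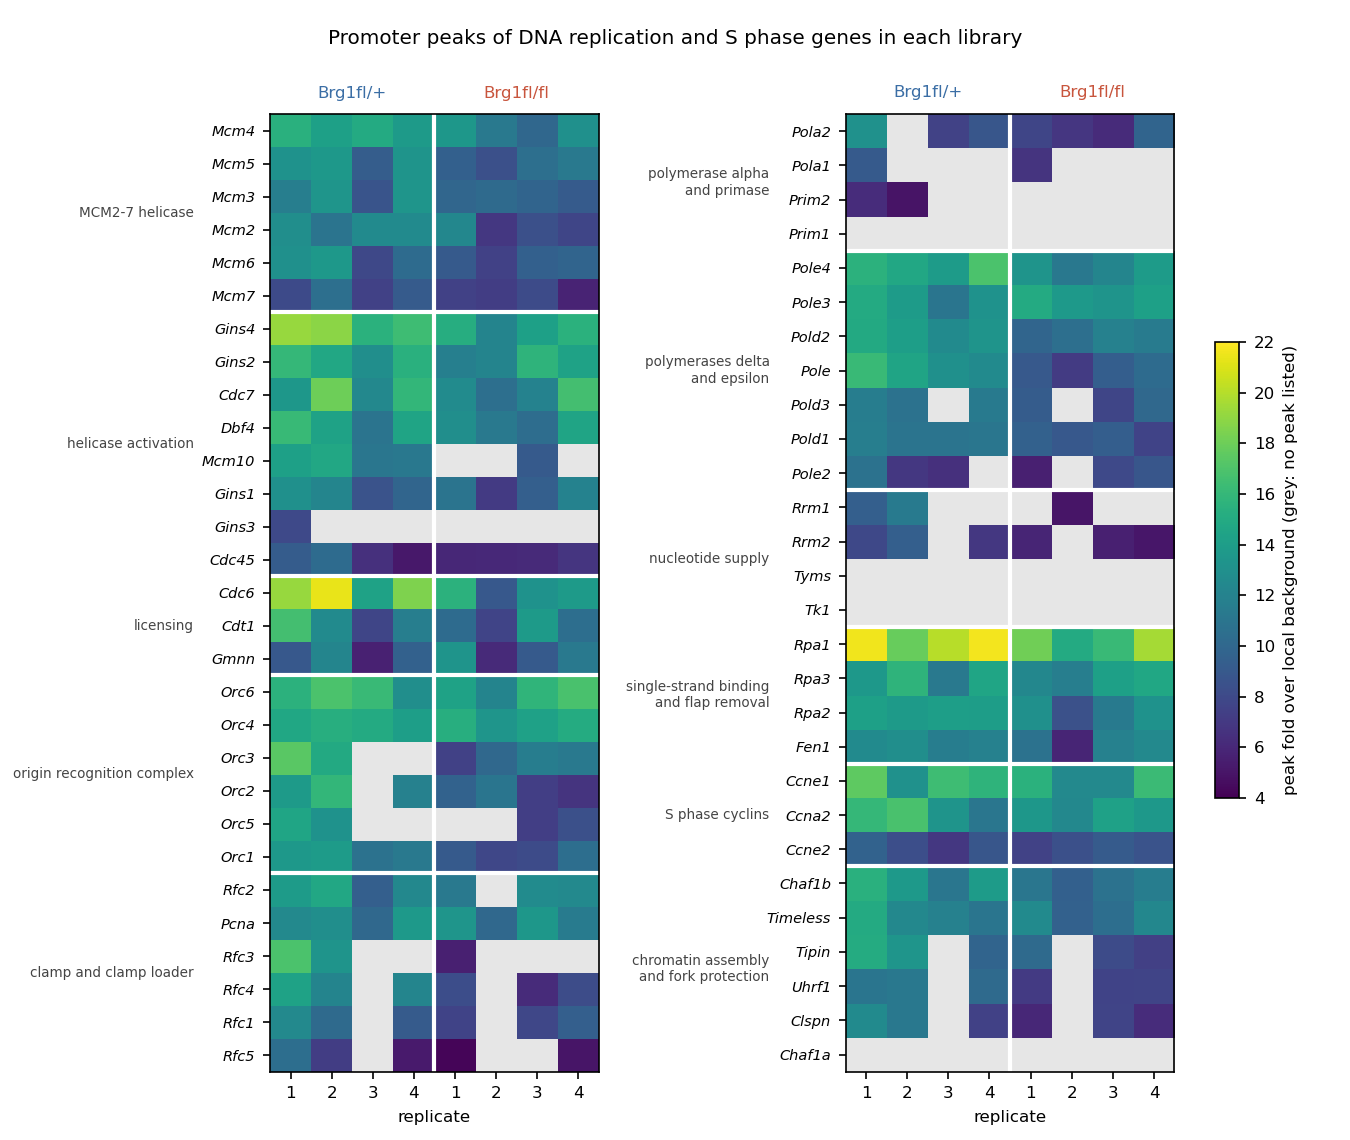
Peak fold over the local background (colour) at the promoter of each of the 57 genes (rows, grouped by role) in the 4 Brg1fl/+ and 4 Brg1fl/fl libraries (columns); grey marks a library with no listed peak. Prim1, Tyms, Tk1 and Chaf1a are grey throughout, Rpa1 has the highest mean, with folds of 15.0 to 21.7, and most gaps fall in Brg1fl/+ replicate 3 and Brg1fl/fl replicate 2.

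For the 33 genes listed in all 8 libraries, the log2 peak fold of each library was centred on the median of all regions listed in every library, and the genotypes were compared with limma over all 4593 such regions, 4246 of them promoter regions. Only Pole, the catalytic subunit of polymerase epsilon, was called, with a less prominent promoter peak in Brg1fl/fl. That is 1 of 33 genes lower (background 2.14% of promoter regions) and 0 of 33 higher (background 2.38%). At an unadjusted p under 0.05 the same fit held 4 genes lower (background 10.1%), Pole, Cdc6, Mcm2 and Orc1, and 1 higher (background 11.7%), Pole3. With recovered fragments in place of the fold, limma called 2 lower (background 3.25%), Pole and Cdc6, and 1 higher (background 6.31%), Pole3. The exact permutation test, whose p cannot go below 0.0286, called none after adjustment over all regions.

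As a group, the 33 genes listed in all 8 libraries lay near the middle of all promoter regions so listed. The 20 genes with a region in 1 to 7 libraries are not part of this comparison. The median difference, Brg1fl/fl minus Brg1fl/+, was -0.05 on the log2 scale for the 33 genes and 0.02 for all 4246 promoter regions, 19 genes lay below 0 and 14 above, and 26 of 33 lay within 0.2 of 0. No gene differed by more than 0.5. The median standard error was 0.11, and the 95% intervals of single genes lay between -0.70 and 0.67. With recovered fragments the median was 0 in the genes and 0.05 in all promoter regions.

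**Figure D4:**
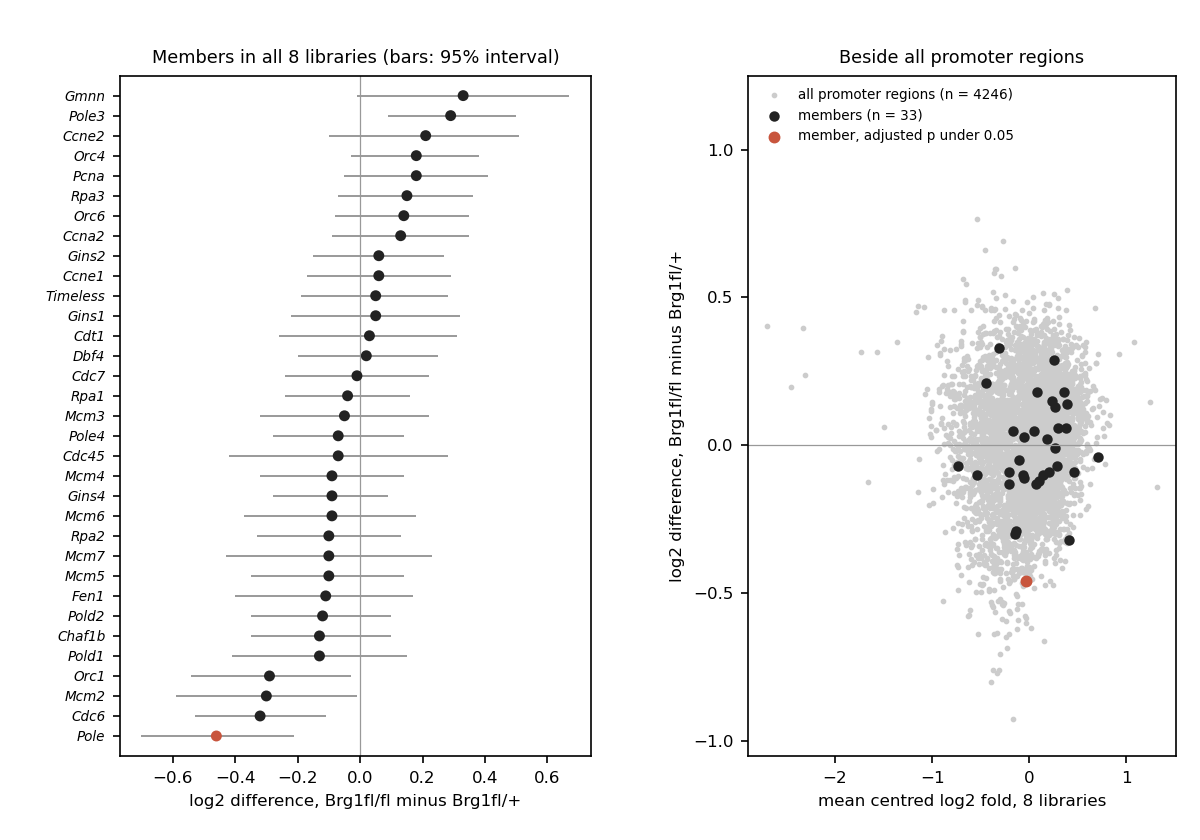
Left, log2 difference in promoter peak fold, Brg1fl/fl minus Brg1fl/+ (x axis), with its 95% interval, for the 33 genes listed in all 8 libraries (y axis). Right, the same difference (y axis) against the mean centred log2 fold (x axis) for these genes (black) and all 4246 promoter regions (grey); Pole (red) at -0.46 is the only gene with an adjusted p under 0.05, and the others range from -0.32 to 0.33.

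Among the subunits of the polymerases that extend the strands, Pole fell and Pole3 had the second highest difference of the set. The fold at the Pole promoter (chr5:110285926-110286575) was 16.2, 14.5, 13.0 and 12.6 in Brg1fl/+ replicates 1 to 4 and 9.01, 7.15, 9.35 and 10.3 in Brg1fl/fl replicates 1 to 4. All 4 Brg1fl/fl values were below all 4 Brg1fl/+ values, before and after centring. The centred log2 fold was 0.19 ± 0.11 in Brg1fl/+ and -0.26 ± 0.11 in Brg1fl/fl (SD, n = 4), a difference of -0.46 (SE 0.12; limma, adjusted p = 0.0226; two-sided exact permutation test, p = 0.0286, the smallest possible). Groups that did not overlap in this direction were found in 2 of the 33 genes, Pole and Orc1 (background 4.69%), and in the other direction in 1, Pole3 (background 7.61%). The call on Pole was lost in limma when libraries 1 with 2 and 3 with 4 were averaged within each genotype (adjusted p = 0.0725, 0 genes called, background 0.659% lower and 0.424% higher), when libraries within sampling noise of each other were averaged (adjusted p = 0.118), and when Brg1fl/+ replicate 1 or 2 or Brg1fl/fl replicate 1 or 2 was left out (adjusted p = 0.0684, 0.0555, 0.057 and 0.0522). Over all 20 alternatives it ran from 0.0233 to 0.365 and missed the threshold in 10. The region is shared with the promoter of Pxmp2, a peroxisomal membrane protein gene.

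Pole3, a histone-fold accessory subunit of polymerase epsilon, had folds of 15.0, 13.9, 11.0 and 13.2 in Brg1fl/+ and of 15.0, 13.7, 13.3 and 14.2 in Brg1fl/fl. After centring on the library median, all 4 Brg1fl/fl values were above all 4 Brg1fl/+ values, at 0.40 ± 0.13 against 0.10 ± 0.04 (SD, n = 4). The region also covers the promoter of 4933430I17Rik, so its values cannot be assigned to Pole3 alone. The difference of 0.29 (SE 0.10) did not pass in limma (adjusted p = 0.0747) and passed with recovered fragments (0.44, limma adjusted p = 0.0273; 0.0273 to 0.405 over 20 alternatives). Pole4, the other histone-fold subunit, had the highest mean log2 fold of these genes (folds of 11.2 to 16.9) and a difference of -0.07. Pold1, the catalytic subunit of polymerase delta, and Pold2, its regulatory subunit, lay at -0.13 and -0.12, neither called. Pold3, a further subunit of polymerase delta, was listed in 3 libraries of each genotype, with folds of 7.73 to 11.6, and Pole2, the second subunit of polymerase epsilon, also in 3 of each, with folds of 5.61 to 10.8.

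Polymerase alpha and primase, which start each new strand, were poorly seen. None of the 4 genes was listed in all 8 libraries. Pola2, the regulatory subunit of polymerase alpha, was listed in 7 libraries with folds of 6.22 to 13.1, and Pola1, the catalytic subunit, in 2, with folds of 9.13 in Brg1fl/+ replicate 1 and 6.73 in Brg1fl/fl replicate 1. These are the libraries with the most fragments at shared promoter peaks in their genotype. Prim2, the large primase subunit, was listed in Brg1fl/+ replicates 1 and 2 only, with folds of 6.31 and 4.92 and 16 and 9 fragments at the summit, again in the deepest libraries of their genotype.

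All 6 genes of the MCM2-7 helicase, the ring that unwinds DNA at the fork, were listed in every library. Their differences ran from -0.30 in Mcm2 to -0.05 in Mcm3, and none was called. The fold of Mcm2 was 12.9, 10.9, 12.6 and 12.6 in Brg1fl/+ replicates 1 to 4 and 12.3, 6.91, 8.42 and 7.75 in Brg1fl/fl replicates 1 to 4. Brg1fl/fl replicate 1 lay among the Brg1fl/+ values and the other 3 lay below them (difference -0.30, SE 0.15, limma adjusted p = 0.21). Without both shallowest libraries the difference was -0.12. Mcm4 had the highest mean log2 fold of the ring, with folds of 10.0 to 15.4, and Mcm7 the lowest, with folds of 5.80 to 10.6. Mcm4, Mcm5, Mcm6 and Mcm7 lay between -0.10 and -0.09.

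Of the licensing factors that load the ring, Cdc6 had the second lowest difference of the set and Gmnn, which encodes the CDT1 inhibitor geminin, the highest. The fold of Cdc6 was 19.2, 21.4, 14.4 and 18.5 in Brg1fl/+ and 15.6, 8.98, 13.2 and 13.8 in Brg1fl/fl. The lowest Brg1fl/+ value and the highest Brg1fl/fl value overlapped, and Brg1fl/fl replicate 2 was the lowest. The centred difference of -0.32 (SE 0.10) did not pass in limma (adjusted p = 0.0578). It passed with recovered fragments, of single libraries (-0.60, limma adjusted p = 0.0051) or averaged in pairs (-0.60, limma adjusted p = 0.00926). With the fold averaged in pairs it did not pass (-0.32, limma adjusted p = 0.123). It passed after quantile normalization (-0.38, limma adjusted p = 0.0283) and without Brg1fl/+ replicate 3 or Brg1fl/fl replicate 1 (limma adjusted p = 0.0469 and 0.0463). Without Brg1fl/fl replicate 2 it was -0.21 (limma adjusted p = 0.24), and over 20 alternatives the adjusted p ran from 0.0051 to 0.27. Gmnn varied widely within each genotype, with folds of 8.97, 12.2, 5.63 and 9.59 in Brg1fl/+ and 13.3, 6.17, 9.13 and 11.3 in Brg1fl/fl. The genotypes overlapped, and the difference of 0.33 (SE 0.17) was not called (limma adjusted p = 0.23). Cdt1, the partner of CDC6 in loading, lay at 0.03.

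The origin recognition complex was split in how well its promoters were seen. Orc1, Orc4 and Orc6 were listed in all 8 libraries, Orc2 in 7, Orc3 in 6 and Orc5 in 4. Of those listed in all 8, Orc6 had the highest mean log2 fold (folds of 12.1 to 16.9) and Orc1 the lowest (7.80 to 13.9). Orc1, which encodes the largest subunit, had folds of 13.6, 13.9, 10.8 and 11.3 in Brg1fl/+ and 9.09, 7.80, 8.09 and 10.5 in Brg1fl/fl. The 4 Brg1fl/fl values were all below the Brg1fl/+ values, after centring by a margin of -0.10 against -0.09, and the centred difference of -0.29 (SE 0.13) was not called (limma adjusted p = 0.17; exact permutation test, p = 0.0286), and its region also covers the promoter of Prpf38a, a splicing factor gene. Orc4 lay at 0.18 and Orc6 at 0.14.

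Orc2 and Orc3 were listed more often in Brg1fl/fl while their listed folds were higher in Brg1fl/+. The fold of Orc2 was 13.8, 15.9 and 11.9 in Brg1fl/+ replicates 1, 2 and 4 and 9.67, 11.0, 7.35 and 6.72 in Brg1fl/fl replicates 1 to 4. The fold of Orc3 was 17.4 and 14.9 in Brg1fl/+ replicates 1 and 2 and 7.48, 10.1, 11.6 and 11.3 in Brg1fl/fl replicates 1 to 4. After centring, the listed values of Orc2 overlapped (-0.01 to 0.27 in Brg1fl/+ and -0.74 to 0.25 in Brg1fl/fl) and those of Orc3 did not (0.17 to 0.35 and -0.59 to 0.12). The Brg1fl/+ libraries without a peak were the shallower ones, and a comparison of listed values leaves out what those libraries would have shown. No background share was taken for the separation of listed values at partly listed regions. Orc5 was listed at 14.6 and 13.2 in Brg1fl/+ replicates 1 and 2 and at 7.32 and 8.40 in Brg1fl/fl replicates 3 and 4.

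With Brg1fl/+ replicate 3 and Brg1fl/fl replicate 2, the shallowest of each genotype, left out, a setting chosen after the data were seen, 42 genes could be tested in limma. Orc2 at -0.56 (SE 0.15, adjusted p = 0.0229) and Rfc4, which encodes a subunit of the clamp loader, at -0.52 (SE 0.16, adjusted p = 0.0371) were called lower (2 of 42, background 2.63%). Orc2 was listed in the omitted Brg1fl/fl replicate 2 at a centred value of 0.25, within the range of the Brg1fl/+ libraries, and Rfc4 in neither omitted library. None was called higher (background 3.85%), and Pole was at -0.33 (adjusted p = 0.102). The fold of Rfc4 was 14.4, 12.1 and 12.2 in the Brg1fl/+ libraries that list it and 8.23, 6.21 and 8.20 in the Brg1fl/fl libraries, with no overlap before or after centring. In this fit the genotypes also did not overlap in Orc2, Pole, Rrm2 and Uhrf1, lower in Brg1fl/fl, and in Pole3, Orc4 and Orc6, higher. The share of all promoter regions without overlap was not taken in this setting. Of the 9 genes that became testable in this way, 8 lay below 0: Orc2, Rfc4, Clspn, Tipin, Rrm2, Uhrf1, Rfc1 and Pold3, with Rfc2 at 0.09. Among all 1343 promoter regions that became testable, 932 (69.4%) lay below 0.

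The clamp Pcna was listed in every library, and its loader was not. Pcna, the ring that holds the polymerases on DNA, had folds of 12.5, 12.9, 10.1 and 13.7 in Brg1fl/+ and 13.4, 10.1, 13.5 and 11.5 in Brg1fl/fl, which overlap, with a centred difference of 0.18 (SE 0.11, limma adjusted p = 0.326). Among the 5 loader genes, Rfc2 was listed in 7 libraries (folds of 9.44 to 14.8), and Rfc1 (folds of 7.62 to 12.5) and Rfc4 in 6. Rfc5 was listed in 5 (folds of 4.28 to 10.5) and Rfc3 in 3. Rfc3 had folds of 16.9 and 13.3 in Brg1fl/+ replicates 1 and 2 and of 5.61 in Brg1fl/fl replicate 1.

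The genes that turn the loaded helicase on differed little between genotypes where they could be compared. Cdc7 and Dbf4, the kinase and its activating subunit, lay at -0.01 and 0.02, and Gins1, Gins2 and Gins4 of the GINS complex at 0.05, 0.06 and -0.09. Among those listed in all 8 libraries, Gins4 had the highest mean log2 fold of this group (folds of 12.1 to 19.2). Cdc45, the helicase cofactor, had the lowest (5.18 to 10.3) and lay at -0.07. Gins3 was listed in Brg1fl/+ replicate 1 only, at a fold of 7.97. The further region of Gins1, at another annotated start site (chr2:150904253-150905040), was listed in 3 Brg1fl/+ and 4 Brg1fl/fl libraries.

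The genes of single-strand binding and flap removal were listed in every library, and none was called. Rpa1, the large subunit of replication protein A, had the highest mean log2 fold of all the genes, with folds of 21.6, 17.8, 20.1 and 21.7 in Brg1fl/+ and 18.1, 15.0, 16.2 and 19.6 in Brg1fl/fl, and a centred difference of -0.04 (95% interval -0.24 to 0.16). Rpa2 and Rpa3, the smaller subunits, lay at -0.10 and 0.15. Fen1, the flap endonuclease that trims Okazaki fragments, lay at -0.11. Its fold was 5.87 in Brg1fl/fl replicate 2 and 10.8 to 12.9 in the other 7 libraries.

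The S phase cyclins were listed in every library, and none was called. Ccne1, which encodes cyclin E1, had folds of 12.5 to 17.5 and a difference of 0.06, and Ccna2, which encodes cyclin A2, a difference of 0.13. Ccne2, which encodes cyclin E2, had the least prominent peak of the group, with folds of 9.67, 8.31, 6.90 and 8.82 in Brg1fl/+ and 7.53, 8.42, 9.14 and 8.58 in Brg1fl/fl. These overlap, and the centred difference was 0.21 (SE 0.15, limma adjusted p = 0.41).

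**Figure D5:**
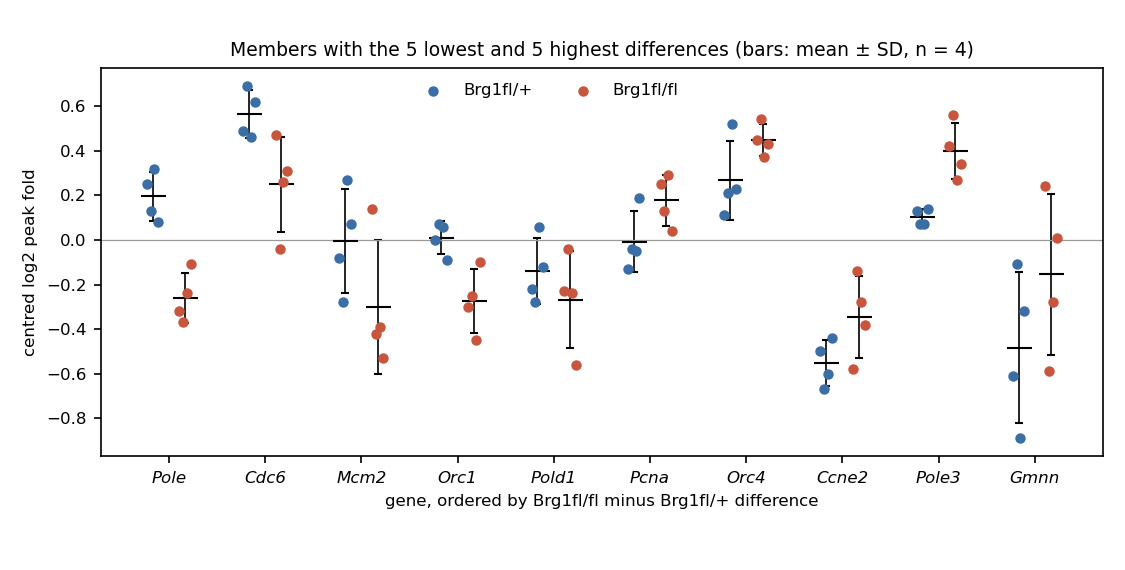
Centred log2 peak fold (y axis) in each Brg1fl/+ (blue) and Brg1fl/fl (red) library for the genes with the 5 lowest and the 5 highest differences (x axis); black bars are the mean ± SD of 4 libraries. The genotypes do not overlap in Pole, Orc1 and Pole3 and overlap in the other 7 genes.

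Nucleotide supply was poorly seen. Rrm1, the large subunit of ribonucleotide reductase, was listed at folds of 9.48 and 11.4 in Brg1fl/+ replicates 1 and 2 and of 5.05 in Brg1fl/fl replicate 2. Rrm2, the small subunit, was listed at 7.88, 9.47 and 6.92 in Brg1fl/+ replicates 1, 2 and 4 and at 5.87, 5.58 and 5.09 in Brg1fl/fl replicates 1, 3 and 4. The listed Brg1fl/fl values of both genes were below the listed Brg1fl/+ values, also after centring (-0.79 to -0.48 in Brg1fl/+ and -1.14 to -0.93 in Brg1fl/fl for Rrm2). For Rrm1 this rests on 1 Brg1fl/fl library, the shallowest, with 8 fragments at the summit. Without both shallowest libraries Rrm2 lay at -0.28 (SE 0.19, limma adjusted p = 0.357) and was not called. How often listed values separate in this way at other partly listed promoter regions was not counted. Of the genes of chromatin assembly and fork protection, Chaf1b, a CAF-1 subunit, lay at -0.13 with folds of 9.49 to 15.4, and Timeless, a fork protection factor, at 0.05. Tipin, the partner of TIMELESS, Clspn, which encodes the checkpoint mediator claspin, and Uhrf1, which guides maintenance of DNA methylation, were each listed in all libraries but the shallowest of each genotype. Clspn was listed at folds of 5.98 to 12.6. The folds of Tipin were 9.79 to 15.1 in Brg1fl/+ and 7.41 to 10.2 in Brg1fl/fl, which overlap. Those of Uhrf1 were 10.2 to 11.2 and 7.04 to 7.68, which do not. Without both shallowest libraries Uhrf1 lay at -0.27 (SE 0.16, limma adjusted p = 0.294) and was not called.

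Regions away from promoters were read by their nearest start site, with 57 of the 55450 annotated genes in the set. 7 of 6188 regions outside all promoter windows had their nearest start site in the set, at Rpa1, Rpa2, Rfc1, Pole, Rfc3 and, with 2 regions, Ccne1. 6 of the 7 were listed in fewer Brg1fl/fl libraries, against 63.4% of all such regions, and none in more, against 25.5%. These 6 were listed in 1 or 2 Brg1fl/+ libraries and in no Brg1fl/fl library, with folds of only 3.91 to 7.3. Of the 7 regions, 3 were listed in 1 library only, against 52.6% of all regions outside promoter windows. The region 14264 bp from Ccne1 was the only one in all 8 libraries, with folds of 12.3 to 15.0 and a difference of 0.28 (SE 0.11, limma adjusted p = 0.108). Nearest distance does not show which gene a region acts on.

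Genes of the same process outside the set, and genes used later in the cell cycle, were read in the same fit. Of 47 other replication genes, 46 had a promoter region and 32 were listed in all 8 libraries. None of the 32 was lower (background 2.14% of promoter regions) and 2 were higher in Brg1fl/fl (background 2.38%). Among these was Asf1b, a histone chaperone, at 0.36 (SE 0.10, limma adjusted p = 0.0358). In fewer Brg1fl/fl than Brg1fl/+ libraries were 4 of the 46 regions (background 37.4%), and in more 6 (background 11.3%). Of 34 mitosis genes, 33 were found in the annotation, all 33 had a region and 11 were listed in all 8 libraries. The other mitosis genes could not be tested in this fit. In fewer Brg1fl/fl than Brg1fl/+ libraries were 11 of the 33 regions (background 37.4%), and in more 7 (background 11.3%). Of the 11 mitosis genes listed in all 8 libraries, 2 were lower (background 2.14%) and 0 higher (background 2.38%). The 2 were Ccnb1, which encodes cyclin B1, at -0.60 (SE 0.12, limma adjusted p = 0.00559), and Kif23, a kinesin of cytokinesis, at -0.37 (SE 0.11, limma adjusted p = 0.0468). With libraries averaged in pairs as above, limma kept Ccnb1 (adjusted p = 0.0178) and lost the other 3. The median difference was 0.02 in both lists. In the replication set, the 8 tested genes with an E2F site had a median difference of -0.09 (range -0.46 to 0.05) and the 25 without one 0.02 (range -0.32 to 0.33). The 18 with a CCAAT box had a median of -0.09 and the 15 without one 0.03. The ranges overlapped, and neither gap was tested.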

How the data were processed

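ATAC-seq peak lists of 4 Brg1fl/+ and 4 Brg1fl/fl libraries were used. Per the study's methods, each library was mapped to mm10 (Bowtie2) and its peaks were called on their own by MACS2. Software versions, settings and any transposase shift are not given in the sources used here. The deposited lists hold, per peak, a fold over the local background (a ratio), a −log10 p and −log10 q, and an integer score. The lowest deposited −log10 q was 1.31. Fragments at the summit were recovered from the fold and −log10 p to within 0.002 (at least 99.7% of peaks per list). The score was not used, and 8 RNA-seq libraries and the authors' coverage comparison were not analysed here.

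Combined regions were assigned to promoters by an overlap of at least 1 bp, and the highest-fold peak of a region was taken in each library. limma 3.58.1 (mean-dependent prior, R 4.3.3) was run without covariates on log2 fold centred per library, with Benjamini-Hochberg adjustment over all regions tested and a threshold of 0.05. Exact permutation tests were two-sided over the 70 assignments of the libraries. Precision is limited by 4 libraries per genotype and by depth, and the recovered counts carry counting error only. No set test was made. The values of 1 gene outside the set are not reported here. Named with values were called genes, genes not listed in all libraries, the highest and lowest mean log2 fold of each role and the 5 lowest and 5 highest differences, with Mcm10, Orc2 and Rfc4 described further after their values were seen. Members, lists, motifs and rules were chosen with earlier results of these data known. Methods were tested on simulated data. Python 3.11.15 (pandas 2.3.3, numpy 2.4.6, pysam 0.24.0, matplotlib 3.10.9, scipy 1.17.1) and samtools 1.23.1 were used.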

Additional observations from a re-analysis of the deposited data

Results flagged for a closer look

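Brg1fl/fl replicate 2 stood apart from the other 3 libraries of its genotype. It listed a promoter region for 37 of the replication and S phase genes, against 47 to 48 in the others, and 50.5% of all promoter regions, against 67.5% to 70.1%. It was the shallowest library, with a median of 22 fragments at the summit of shared promoter peaks, and the part of depth in this gap was not tested. Of 28 groups of 4 libraries examined for a value far from the rest, these 2 were found, and chance gives about 1 in 20.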

How the results depend on the processing

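Of 318 values that answer a comparison and were recomputed under another choice, 250 were labelled the same. That label allowed a count to change within a fixed ratio, and a median or a difference in shares by less than the SD between libraries. In limma, genes of the set called lower numbered 1 as reported (background 2.14% of promoter regions), 2 with quantile normalization and 2 with recovered fragments (background 3.25%). They numbered 2 without both shallowest libraries (background 2.63%) and 0 with libraries averaged in pairs (background 0.659%). With recovered fragments averaged in pairs 1 was called, Cdc6. The rank, the exact test and libraries within sampling noise averaged gave 0. Genes called lower numbered 0 to 2 when single libraries were left out, and without Brg1fl/fl replicate 1 the gene called was Cdc6. Genes called higher numbered 1 with recovered fragments (background 6.31%). No share of calls over all promoter regions was taken in the other settings, so counts there cannot be read against the general rate. The median difference of 33 genes moved from -0.05 to 0 with recovered fragments, alone or averaged in pairs, was -0.09 with quantile normalization, and ran from -0.06 to 0 without single libraries. Orc4 turned below 0 by rank (-0.381 rank percentage points), and no other difference among the 10 lowest and highest changed sign.

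Numbers did not pair the libraries (same-number correlations -0.0912 to 0.0126), and the replicate block left 1 gene of the set called, 2 other replication genes called and 1 mitosis gene called in place of 2. Mitosis genes called lower also numbered 1 with the constant prior, promoter regions only, averaged pairs, recovered fragments and both together, 0 with rank, exact test and libraries within noise averaged, and 1 to 3 without single libraries, and 1 was called higher with recovered fragments, alone or averaged in pairs. Other replication genes called higher numbered 1 with recovered fragments, 0 with the constant prior, exact test, rank, averaged pairs, averaged pairs with fragments and libraries within noise averaged, and 0 to 2 without single libraries, and 1 was called lower without both shallowest libraries and 0 to 1 without single ones.

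Genes listed in all libraries numbered 20 where peaks had to cover 50% of the region. Genes listed less often in Brg1fl/fl numbered 18 where −log10 q had to reach 10 and 3 with libraries joined in pairs, and those listed more often 5 where it had to reach 5, 1 in pairs and 14 with 50% covered. Without single libraries they ran from 6 to 16 and from 3 to 13, where 3 against 4 libraries leave few equal shares by construction. In these settings 0 to 1 gene was in all Brg1fl/+ and no Brg1fl/fl library. Apart from 44.8% listed less often at a −log10 q of at least 10, no background shares were taken for these detection counts. Distal regions numbered 2 where −log10 q had to reach 10 and 1 when all lists were cut to equal length, of which 1 and 0 were in fewer Brg1fl/fl libraries. The causes were not tested. Leaving out the shallowest libraries, averaging libraries within noise, and pairs with fragments were chosen after the data were seen.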
